A study of Mus musculus with 7 samples.

Results

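The purinergic genes described here were 6 receptors and 1 enzyme, picked by symbol from the count table: the ADP receptors P2ry12 and P2ry13, the UDP receptor P2ry6, the ATP-gated channels P2rx4 and P2rx7, the adenosine receptor Adora3 and the ectoenzyme Entpd1. All 7 were found among 14594 rows that named a gene, and all 7 passed the filter on low counts. RNA was measured in CD11b-captured microglia sorted from the cortex of C57BL/6 mice at about 12 weeks of age, all of which carried Cx3Cr1GFP/+, Hoxb8IRES-Cre/+ and ROSA26CAG-LSL-tdTomato/+. Cells positive for both tdTomato and GFP are called Hoxb8 microglia (3 libraries, numbered 6, 14 and 22), and cells with GFP only are called non-Hoxb8 microglia (4 libraries, numbered 5, 13, 21 and 25). Per-library values are always given in this order. The tdTomato mark depends on Cre made at any time from the Hoxb8 locus, so it records descent and not Hoxb8 RNA at the time of sorting. GFP stands in 1 of the Cx3cr1 alleles of both groups. The labels name 4 animals for the 7 libraries without saying which share an animal, so p-values measure the spread between these libraries.

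Purinergic signalling lets microglia sense nucleotides that leak or are released from other cells. ATP opens P2X channels, ADP and UDP act on G protein-coupled P2Y receptors, and ectoenzymes on the cell surface cut ATP and ADP to AMP and AMP to adenosine, which acts on adenosine receptors. In microglia the pathway is known for steering processes towards injured cells, for prompting engulfment and for activating the inflammasome.

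The libraries held between 5915261 and 7741934 counts over genes. The labelled cell type was checked against 8 homeostatic microglia markers (Tmem119, Sall1, Cx3cr1 and others, not P2ry12). All 8 were tested, 0 differed between groups in edgeR, and their summed level lay between 23368 and 26816 CPM in Hoxb8 libraries and between 21385 and 27584 CPM in non-Hoxb8 libraries (CPM are counts scaled by library size after TMM normalisation). The sums of monocyte markers did not overlap between groups. The 6 monocyte markers summed to between 110 and 170 CPM in Hoxb8 libraries and between 17.2 and 31.6 CPM in non-Hoxb8 libraries. Of the 5 tested, 1 was called higher in edgeR, against 0.0337% of all tested genes. Ly6c2 was at 0 in 6 of the 7 libraries, Spn and Treml4 in 4 each and Plac8 in 2, so the sum can rest on few of the markers. How often sums over other sets of genes separate in this way was not computed. The 8 border-associated macrophage markers summed to between 198 and 834 CPM in Hoxb8 libraries and between 33.5 and 200 CPM in non-Hoxb8 libraries, with 0 of the 8 called. Of the dendritic cell markers 1 of 5 was called higher, against the same 0.0337% of all tested genes. The 5 platelet markers summed to between 89.6 and 138 CPM in Hoxb8 libraries and between 84.0 and 194 CPM in non-Hoxb8 libraries, with 0 called and Ppbp at 0 in every library. Of 5 mast cell markers only Kit was in the table used, at 0 in every library. The part of these cells in the results was not tested. Libraries 14 and 13 stood apart in the cytokine Il1b and in Xist, at 15.1 and 23.2 CPM against 8291 CPM or more in the other 5. Ddx3y, which is Y-linked, reached 128 CPM in library 14 and 98.8 CPM in library 13, while library 6 had 0 and library 5 had 0.137 CPM. Libraries 22, 21 and 25 held both RNAs, with Ddx3y at 38.0, 25.2 and 28.5 CPM. Libraries of adjacent number were thus alike in which of Xist and Ddx3y they held, and the pairs differed from each other in this. Library 25, which has no adjacent library, was like 21 and 22. Levels could still differ within a pair, as for the Y-linked Uty, at 11.5 CPM in library 22 and 45.7 CPM in library 21. The fold changes and calls of the 7 genes, but not the other values below, were also computed without libraries 13 and 14 and without libraries 21, 22 and 25.

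P2ry12 and P2ry13 are neighbours on mouse chromosome 3. By GENCODE M21 (GRCm38), the protein-coding gene P2ry12 (ENSMUSG00000036353.13) lies at chr3:59216272-59262871 and P2ry13 (ENSMUSG00000036362.2) at chr3:59207892-59210882, both on the minus strand, 5389 bases apart and within Med12l on the opposite strand. The exons of P2ry12 share 9 bases with those of Med12l and the exons of P2ry13 share 0. P2rx7 (chr5:122643911-122691432) and P2rx4 (chr5:122707544-122729738) are neighbours on the plus strand of chromosome 5, 16111 bases apart. P2ry6 lies at chr7:100937630-100974649 on the minus strand, Entpd1 at chr19:40612366-40741602 on the plus strand and Adora3 at chr3:105870858-105908926 on the plus strand. Adora3 shares 779 exonic bases, 20.9% of its merged exons, with Tmigd3 on the same strand, so its count is uncertain to the extent that the authors' counting split or dropped shared reads. Mir8115 shares 119 bases with P2rx7.

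RefSeq promoter entries of GRCm38.p6 were matched for 6 of the 7 genes. The 250 bases before the start are shown for the 3 most abundant members. For Entpd1 the second of its 2 starts is shown, as a window with matches. It lies 47404 bases inside the outermost GENCODE start, where the first start lies, whose window held none of the words searched. Capitals mark matches on either strand to GAGGAA, the core bound by the myeloid factor PU.1, or to GGAAGT, a core of the wider ETS family. Both can lie in the same letters.
P2ry12, chr3:59262986-59263235, minus strand: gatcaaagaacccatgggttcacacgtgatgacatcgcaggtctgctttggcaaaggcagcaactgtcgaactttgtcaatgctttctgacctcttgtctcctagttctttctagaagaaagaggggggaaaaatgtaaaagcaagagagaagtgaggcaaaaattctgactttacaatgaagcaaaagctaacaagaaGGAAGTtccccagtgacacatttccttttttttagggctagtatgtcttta
P2ry13, chr3:59210883-59211132, minus strand: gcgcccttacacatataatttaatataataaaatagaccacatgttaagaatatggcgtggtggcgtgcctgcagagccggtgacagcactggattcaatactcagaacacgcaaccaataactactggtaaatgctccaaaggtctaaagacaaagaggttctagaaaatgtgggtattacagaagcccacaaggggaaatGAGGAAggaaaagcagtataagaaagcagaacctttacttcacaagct
Entpd1, chr19:40659520-40659769, plus strand: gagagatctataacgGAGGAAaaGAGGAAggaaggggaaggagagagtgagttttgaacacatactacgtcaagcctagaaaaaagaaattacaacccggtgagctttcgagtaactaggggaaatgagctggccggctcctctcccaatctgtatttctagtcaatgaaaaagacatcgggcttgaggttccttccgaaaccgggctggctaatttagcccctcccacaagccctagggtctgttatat

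P2ry12 held GGAAGT starting 51 bases before its RefSeq start and P2ry13 held GAGGAA starting 48 bases before its start, while the Entpd1 window held 2 copies of GAGGAA at 235 and 227 bases before the start. Of the 8 windows of the 6 genes, 4 held at least 1 of these words, the fourth being that of Adora3, whose GAGGAA and GGAAGT matches overlap on the minus strand at 28 and 30 bases before the start. Among all 32851 promoter windows of that length, 23.3% held GAGGAA, 19.7% held GGAAGT and 36.7% held either. TGTGGT, a RUNX word found in 14.05% of windows, occurred in the P2ry13 window only, and TATAAA, found in 12.4%, in none of the 8. The P2ry12 start in RefSeq lies 114 bases outside the outermost GENCODE start, and its window overlaps an exon of Med12l. The Adora3 start lies 33563 bases inside its outermost GENCODE start. These are matches of letters and were not tested as binding sites.

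Compared with non-Hoxb8 microglia, Hoxb8 microglia had closely similar levels of the 7 genes. In edgeR's quasi-likelihood test 0 of the 7 were called higher and 0 lower, against a background of 0.0337% of 11874 tested genes called higher and 0% called lower. The same 7 gave 0 calls in DESeq2 (background 0.159% higher and 0.0379% lower) and 0 in limma-voom (background 0% in either direction), and 0 of the 7 had an unadjusted edgeR p below 0.05, against 3.52% of all tested genes. None of the 7 had groups that did not overlap, against 4.56% of all tested genes (2.48% higher and 2.08% lower in Hoxb8 libraries). Log2 fold changes (Hoxb8 over non-Hoxb8) ran from -0.13 to 0.12 with a median of 0.01, beside a median of -0.00034 over all tested genes, and 4 of the 7 were above 0. The edgeR adjusted p was 0.9996 for each. The 95% interval of the fold change excluded a 2-fold difference in either direction for all 7, as it did for 43.8% of all tested genes. Among the 7, the widest bounds were 1.36-fold higher, for P2rx7, and 1.55-fold lower, for P2rx4. The 43.8% takes in genes of low count, and the median interval width over all tested genes was 1.65 log2 units. The share among genes of like level was not computed. In bulk RNA, a lower share of expressing cells and less RNA per cell cannot be told apart.

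**Figure D1:**
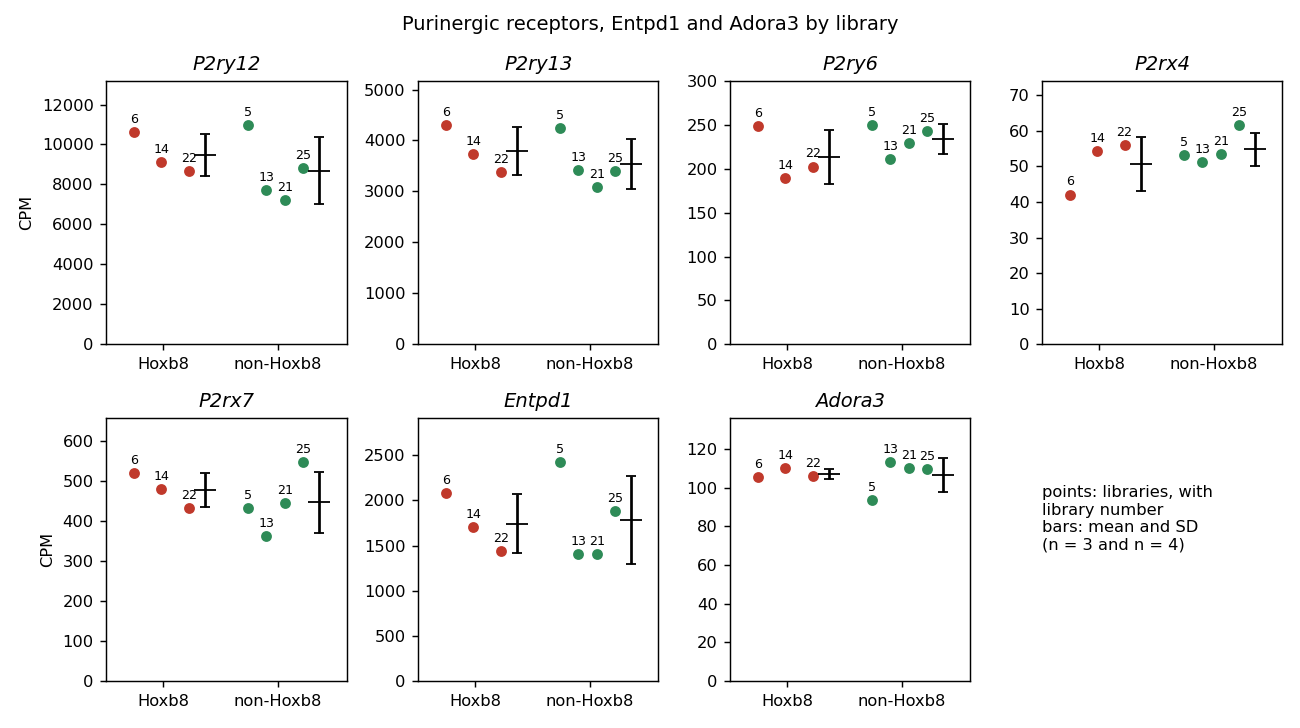
CPM of each gene in every library, on a linear axis from 0, with Hoxb8 libraries in red on the left and non-Hoxb8 libraries in green on the right of each panel; small numbers are library numbers, and black marks give the mean and SD (n = 3 and n = 4). The groups overlap in all 7 panels.

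**Figure D2:**
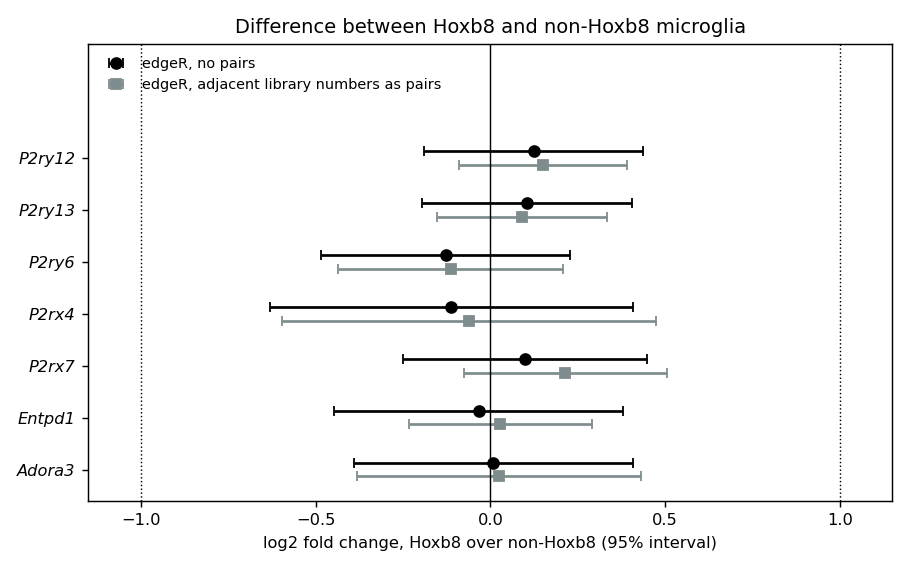
Log2 fold change of Hoxb8 over non-Hoxb8 with its 95% interval for each gene, from edgeR without pairs (black circles) and with adjacent library numbers as pairs (grey squares). All intervals cross 0 and stay inside the dotted lines at -1 and 1.

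The Gi-coupled ADP receptors were the most abundant members. P2ry12, which guides microglial processes towards ADP at sites of injury and is also the platelet receptor blocked by clopidogrel, stood at 10639, 9131 and 8649 CPM in Hoxb8 libraries, against 10980, 7720, 7243 and 8833 CPM in non-Hoxb8 libraries. The highest and the lowest 2 libraries were all non-Hoxb8, and the 3 Hoxb8 values fell between them. P2ry12 had a log2 fold change of 0.12 ± 0.15 (SE; 95% interval from -0.19 to 0.44; exact two-sided permutation p = 0.514). P2ry13, a second receptor for ADP, stood at 4305, 3727 and 3373 CPM in Hoxb8 libraries, against 4236, 3422, 3086 and 3399 CPM in non-Hoxb8 libraries. Its order of libraries was nearly that of P2ry12, with libraries 6 and 5 at the top and 21 at the bottom. The log2 fold change was 0.10 ± 0.14 (SE; 95% interval from -0.20 to 0.40; exact two-sided permutation p = 0.457). With 3 libraries against 4 the permutation test cannot give a p below 0.0571.

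The Gq-coupled UDP receptor P2ry6, which in microglia prompts engulfment, stood at 249, 190 and 203 CPM in Hoxb8 libraries, against 250.2, 211, 229 and 244 CPM in non-Hoxb8 libraries. Hoxb8 libraries 14 and 22 were the lowest 2 of the 7, while Hoxb8 library 6 was level with the highest. Hoxb8 libraries averaged 214 ± 31.1 CPM and non-Hoxb8 libraries 234 ± 17.2 CPM (SD, n = 3 and n = 4). The log2 fold change of -0.13 ± 0.17 (SE; 95% interval from -0.49 to 0.23) gave an exact two-sided permutation p of 0.286.

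The ATP-gated channels differed from each other in level but neither was called between groups. P2rx7, which opens at high ATP and is known for activating the NLRP3 inflammasome, stood at 519, 480.1 and 432 CPM in Hoxb8 libraries, against 431, 361, 444 and 548 CPM in non-Hoxb8 libraries. The lowest and the highest library were both non-Hoxb8. Its log2 fold change was 0.10 ± 0.16 (SE; 95% interval from -0.25 to 0.45; exact two-sided permutation p = 0.514). P2rx4, a channel of higher ATP affinity known in microglia for its part in neuropathic pain, stood at 42.1, 54.3 and 55.9 CPM in Hoxb8 libraries, against 53.1, 51.2, 53.4 and 61.7 CPM in non-Hoxb8 libraries. Apart from Hoxb8 library 6 at the low end and non-Hoxb8 library 25 at the high end, the libraries lay within a narrow band. The log2 fold change was -0.11 ± 0.24 (SE; 95% interval from -0.63 to 0.41; exact two-sided permutation p = 0.571). P2rx4 had between 315 and 415 counts per library, the fewest of the 7, so that counting error alone gives a coefficient of variation of 5.18%, against 0.395% for P2ry12. The 95% intervals of the fold changes also take in the spread between libraries.

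Entpd1 (CD39), which removes phosphates from ATP and ADP to leave AMP, stood at 2084, 1707 and 1434 CPM in Hoxb8 libraries, against 2430, 1407, 1407 and 1884 CPM in non-Hoxb8 libraries. It had the widest spread of the 7, with its highest library 1.73 times its lowest, and libraries 5 and 6 were again the top 2. Hoxb8 libraries averaged 1742 ± 326 CPM and non-Hoxb8 libraries 1782 ± 487 CPM (SD, n = 3 and n = 4). The log2 fold change was -0.03 ± 0.19 (SE; 95% interval from -0.45 to 0.38; exact two-sided permutation p = 0.971). Adora3, a Gi-coupled adenosine receptor, stood at 106, 110.3 and 106 CPM in Hoxb8 libraries, against 93.7, 114, 110.2 and 109.6 CPM in non-Hoxb8 libraries. It varied least, with its highest library 1.21 times its lowest. The log2 fold change was 0.01 ± 0.19 (SE; 95% interval from -0.39 to 0.41; exact two-sided permutation p = 1.00). Tmigd3, which shares exons with Adora3, stood at 188, 122 and 141 CPM in Hoxb8 libraries, against 137, 117, 129 and 130 CPM in non-Hoxb8 libraries.

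Per length of transcript, the 7 genes spanned a range from among the most abundant RNAs of the cell to a low level. Per kilobase of merged exons, P2ry12 averaged 3721 ± 408 CPM in Hoxb8 and 3415 ± 653 CPM in non-Hoxb8 libraries (SD, n = 3 and n = 4), and it ranked between 3 and 7 among 13986 genes with a length. P2ry13 averaged 1504 ± 186 CPM per kilobase in Hoxb8 and 1399 ± 194 in non-Hoxb8 libraries, with ranks between 10 and 13. Entpd1 came next, at 312 ± 58.5 CPM per kilobase in Hoxb8 and 319 ± 87.3 in non-Hoxb8 libraries, with ranks between 44 and 84. These first 3 kept their order in all 7 libraries and their ranges did not overlap.

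After it came P2rx7 and P2ry6, whose per-kilobase levels did not differ beyond their spread. P2rx7 averaged 79.9 ± 7.26 CPM per kilobase in Hoxb8 and 74.7 ± 12.9 in non-Hoxb8 libraries, and P2ry6 averaged 74.0 ± 10.8 in Hoxb8 and 80.9 ± 5.95 in non-Hoxb8 libraries. P2rx7 was the higher of the pair in the 3 Hoxb8 libraries and in non-Hoxb8 library 25, and P2ry6 in the other non-Hoxb8 libraries. With the length of the longest transcript in place of merged exons, P2ry6 was the higher in all 7 libraries, so the order of these receptors depends on the gene model. Adora3 followed at 28.8 ± 0.683 CPM per kilobase in Hoxb8 and 28.6 ± 2.39 in non-Hoxb8 libraries, and P2rx4 was last at 7.23 ± 1.08 in Hoxb8 and 7.81 ± 0.661 in non-Hoxb8 libraries, with ranks between 4432 and 5629.

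**Figure D3:**
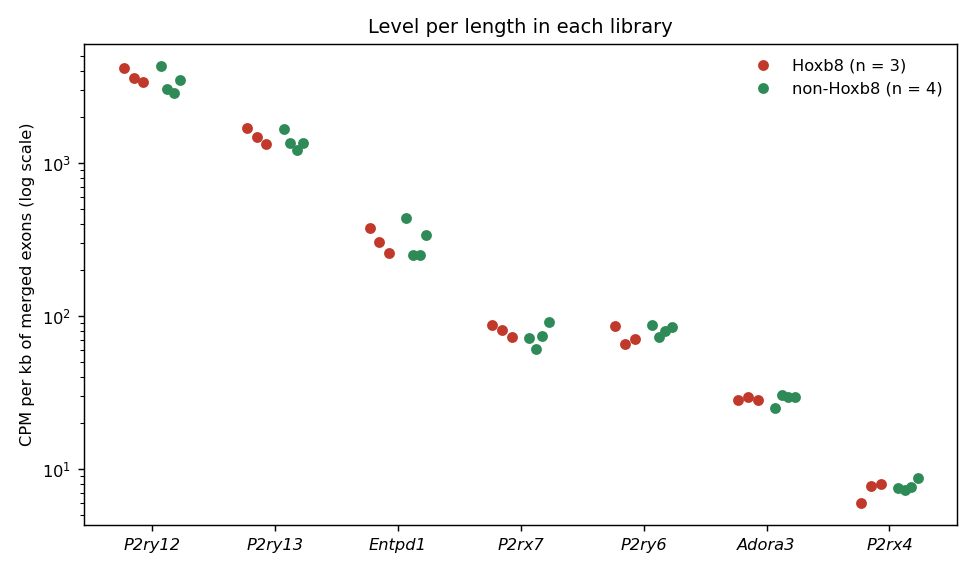
CPM per kilobase of merged exons on a log axis, 1 point per library, Hoxb8 in red and non-Hoxb8 in green. P2ry12 lies between 2845 and 4313, P2ry13 between 1221 and 1703, and P2rx4 between 5.99 and 8.78, while P2rx7 and P2ry6 overlap.

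In the make-up of the group, P2ry12 and P2ry13 had similar shares from library to library, while the smaller shares varied more in proportion. P2ry12 and P2ry13 make up most of the sum, so this contrast follows in part from the calculation. Of the summed per-kilobase level of the 7 genes, P2ry12 made up 65.0 ± 0.635% in Hoxb8 and 64.0 ± 1.09% in non-Hoxb8 libraries (SD, n = 3 and n = 4), and P2ry13 made up 26.2 ± 0.381% in Hoxb8 and 26.4 ± 1.47% in non-Hoxb8 libraries. Entpd1 took 5.42 ± 0.410% in Hoxb8 and 5.93 ± 0.618% in non-Hoxb8 libraries. From the lowest to the highest library, the share ran from 1.18 to 1.76% for P2ry6 and from 1.09 to 1.71% for P2rx7. It ran from 0.380 to 0.655% for Adora3 and from 0.0927 to 0.169% for P2rx4. The per-kilobase ratio of P2ry12 to P2ry13 was 2.45, 2.43 and 2.55 in Hoxb8 libraries, against 2.57, 2.24, 2.33 and 2.58 in non-Hoxb8 libraries. The ratio of P2ry12 to P2ry6 was 48.5, 54.6 and 48.4 in Hoxb8 libraries, against 49.8, 41.4, 35.8 and 41.1 in non-Hoxb8 libraries. Hoxb8 library 14 had the highest of these values, but non-Hoxb8 library 5 was above the other Hoxb8 libraries. Of 4 ratios compared, the last had the lowest exact permutation p, two-sided (0.171, or 0.533 after Benjamini-Hochberg adjustment over the 4). The others were P2rx7 to P2rx4 at 11.3 ± 2.82 in Hoxb8 and 9.52 ± 0.903 in non-Hoxb8 libraries (exact permutation p = 0.400), P2ry12 to Entpd1 at 12.0 ± 1.05 in Hoxb8 and 10.9 ± 0.966 in non-Hoxb8 libraries (exact permutation p = 0.286), and P2ry12 to P2ry13 (exact permutation p = 0.743).

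P2ry12, P2ry13 and Entpd1 were each highest in libraries 5 and 6, which belong to different groups. After centring log2 CPM on the mean of the 7 libraries, library 5 stood at 0.30, 0.22 and 0.49 for P2ry12, P2ry13 and Entpd1, and library 6 at 0.25, 0.25 and 0.27. Library 21 stood at -0.30, -0.23 and -0.30, and library 25 at -0.02, -0.09 and 0.12. Entpd1 thus departed from the others in library 25, and its distance from P2ry13, 0.169 log2 units, was about that of P2ry13 from a flat profile, 0.166. The summed homeostatic markers moved with P2ry12, P2ry13 and Entpd1. Library 5 (27584 CPM) and library 6 (26816 CPM) were also highest there and library 21 (21385 CPM) was lowest, a non-Hoxb8, a Hoxb8 and a non-Hoxb8 library. The part of these markers in the values of P2ry12, P2ry13 and Entpd1 was not tested.

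Among 6489 tested genes with a mean of at least 20 CPM, P2ry13 was the second nearest in profile to P2ry12, at a root mean square distance of 0.071 log2 units over the 7 libraries, after Ppp1r9b at 0.070. The genes nearest to P2ry13 were Zfp706 at 0.050 and Slc6a6 at 0.053. Entpd1 was closest to C1qb, a chain of complement C1q, at 0.038 and to the lysosomal protein Cd68 at 0.051, while its own profile departed from flat by 0.29. P2ry6 was nearest to Mgat4a and Gcnt1, P2rx4 to Supt16 and Smad1, P2rx7 to Stau1 and Man2b2, and Adora3 to Gmip and Dip2b, at distances from 0.041 to 0.082. These libraries are few and share animals, so the distances only describe them.

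**Figure D4:**
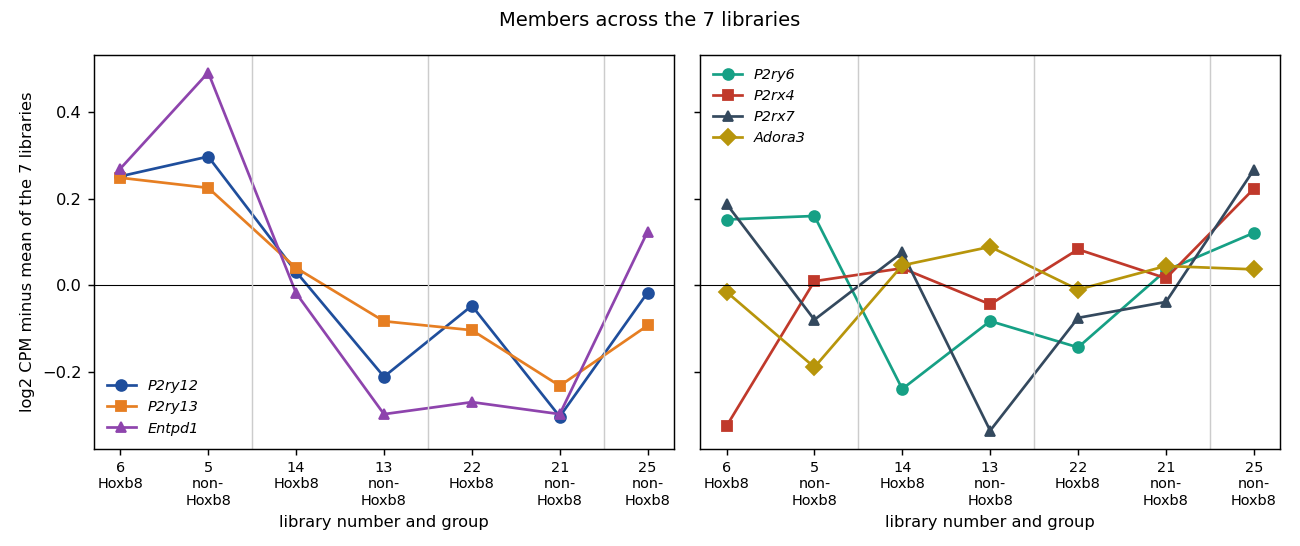
Log2 CPM of each gene minus its mean over the 7 libraries, with libraries of adjacent number side by side and the Hoxb8 library on the left of each pair; lines only link points of a gene. P2ry12, P2ry13 and Entpd1 (left panel) are highest in libraries 6 and 5 and lowest or nearly lowest in library 21, and P2ry6 (right panel) is also highest in libraries 5 and 6.

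With libraries of adjacent number taken as pairs in the fit, 0 of the 7 genes were called either, against 0.362% of all tested genes higher and 0% lower in edgeR, and 0.332% higher and 0.00692% lower in DESeq2. In each of the 3 pairs the Hoxb8 library had the higher P2ry13 value, by 0.02, 0.12 and 0.13 on the log2 scale. P2ry6 was lower in all 3, by -0.01, -0.16 and -0.18. How many of all tested genes kept 1 direction over the 3 pairs was not computed, so these directions only describe the pairs. The fits gave 0.09 ± 0.12 (SE) for P2ry13 and -0.11 ± 0.16 for P2ry6. P2rx7 had the largest value with the pairs, 0.21 ± 0.14 (95% interval from -0.08 to 0.50), but was higher in 2 of the 3 pairs. It and the 4 remaining genes were mixed in sign over the pairs.

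Of the other receptors for nucleotides and adenosine, few were detected at a testable level. In the lists of purinergic genes, 79 of 111 listed symbols were tested, with a median log2 fold change of -0.01. Grk2 and Adrbk1, both in the P2Y12 signalling list, are symbols of the same gene, which was tested as Adrbk1. In edgeR 0 were called up and 0 down, with 0 called in DESeq2 and 0 in limma-voom. An unadjusted edgeR p under 0.05 was found for 2, which is 2.53% of the 79 against 3.52% of all tested genes. With the pairs, 2 of the 79 were called higher in edgeR, Cd38 and Il1b, against 0.362% of all tested genes. DESeq2 with the pairs also called 2. P2rx1 was the only other P2X receptor tested, of 5 listed, at 10.5 ± 0.283 CPM in Hoxb8 and 14.4 ± 11.5 CPM in non-Hoxb8 libraries (SD) (log2 fold change -0.45 ± 0.58, SE). Of 10 other P2Y and P2Y-like receptors 3 were tested, all of them P2Y-like and none named as a nucleotide receptor. Gpr34, a lysophosphatidylserine receptor enriched in microglia, stood at 2310.0 ± 185 CPM in Hoxb8 and 2191 ± 302 CPM in non-Hoxb8 libraries (0.08 ± 0.14), Gpr183 had a log2 fold change of 0.08 ± 0.19 and Lpar6 of 0.08 ± 0.22. Adora1, the only other adenosine receptor tested, of 3, was at 1.74, 0.540 and 3.64 CPM in Hoxb8 libraries, against 1.37, 2.17, 2.08 and 20.6 CPM in non-Hoxb8 libraries. Library 25 was far above the other 6. Its log2 fold change was -1.72 ± 1.04, and -0.18 with pairs, where library 25 stands alone.

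P2ry10, a receptor of lymphoid and myeloid cells named here after its values were seen, had 110 counts (14.8 CPM) in Hoxb8 library 14 and 0 in each of the other 6 libraries. It was not tested because of the filter on low counts. Library 14 also had the highest sum of dendritic cell markers, 87.7 CPM, against 33.0 and 25.3 CPM in the other Hoxb8 libraries and between 13.8 and 33.1 CPM in non-Hoxb8 libraries. Their part in the P2ry10 count was not tested. Slc28a2, a nucleoside transporter, was also named after its values were seen and was too low to be tested in edgeR. It had 6, 12 and 10 counts in Hoxb8 libraries, against 0 in each of the 4 non-Hoxb8 libraries. DESeq2, which kept it, did not call it (adjusted p = 0.852). The share of genes below the filter that separate in this way was not computed.

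Among 20 other nucleotide-handling ectoenzymes, 9 were tested and 0 called in either direction (median log2 fold change 0.29). Nt5e (CD73), which turns the AMP left by Entpd1 into adenosine, had 6, 0 and 4 counts in Hoxb8 libraries, against 6, 4, 3 and 8 counts in non-Hoxb8 libraries, too few to be tested, beside 8774 counts or more of Entpd1 in every library. Entpd5 stood at 19.6 ± 9.28 CPM in Hoxb8 and 19.1 ± 9.55 CPM in non-Hoxb8 libraries (log2 fold change 0.04 ± 0.47), Entpd6 had a log2 fold change of 0.46 ± 0.57 and Entpd7 of -0.54 ± 0.32. Cd38, an ectoenzyme that consumes NAD, stood at 10.8, 37.1 and 0.539 CPM in Hoxb8 libraries, against 0.275, 2.04, 0.160 and 4.47 CPM in non-Hoxb8 libraries. The groups overlapped, since Hoxb8 library 22 was below non-Hoxb8 libraries 13 and 25. It was higher in the Hoxb8 library of each pair and was called with the pairs (log2 fold change 4.18, edgeR adjusted p = 0.00988) but not without them (3.22 ± 1.33).

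Nucleoside transport and salvage genes (9 tested of 12, median 0.04) and ATP release genes (9 of 12, median 0.03) had 0 called. Slc29a3, a lysosomal nucleoside transporter, was at 1891 ± 289.5 CPM in Hoxb8 and 1891 ± 430.0 CPM in non-Hoxb8 libraries, Slc29a1 had a log2 fold change of 0.05 ± 0.29 and Slc29a2 of 0.27 ± 1.04. Of the release genes Panx1, a channel that lets ATP out, was at 6.45 ± 2.40 CPM in Hoxb8 and 4.29 ± 2.07 CPM in non-Hoxb8 libraries (0.58 ± 0.67). Slc17a9, which loads ATP into vesicles, had a log2 fold change of 0.11 ± 0.47 and Lrrc8a, a volume-regulated channel subunit, of -0.02 ± 0.20. Vdac1, a mitochondrial outer membrane channel, was 1 of 3 list genes whose groups did not overlap, 3.80% of the 79 against the 4.56% of all tested genes. It stood at 75.4, 85.7 and 93.0 CPM in Hoxb8 libraries, against 73.3, 51.8, 37.0 and 42.4 CPM in non-Hoxb8 libraries, with a log2 fold change of 0.73 ± 0.26 that was not called (edgeR adjusted p = 0.9996).

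Downstream genes gave 0 calls without the pairs. The P2Y12 signalling list had 18 tested of 19 symbols (median -0.02). Its potassium channel Kcnk13, known as THIK-1 and for sustaining microglial ramification and surveillance, was at 47.2 ± 20.3 CPM in Hoxb8 and 53.2 ± 15.1 CPM in non-Hoxb8 libraries (log2 fold change -0.17 ± 0.33). The inhibitory G protein chains Gnai1 and Gnai2 had log2 fold changes of 0.93 ± 1.28 and -0.14 ± 0.17. In the P2Y6 and Gq list (16 of 16, median -0.14), Gnaq, Gna11 and Gna13 had log2 fold changes of -0.15 ± 0.16, -0.19 ± 0.34 and 0.13 ± 0.19. The calcium release channel Itpr3 and the integrin chain Itgav did not overlap between groups and were lower in Hoxb8 libraries in value, by log2 fold changes of -0.79 ± 0.41 and -0.22 ± 0.14, neither called. In the list downstream of P2X4 and P2X7 (13 of 14, median -0.01), the inflammasome genes Nlrp3, Pycard and Casp1 had log2 fold changes of -0.15 ± 0.28, -0.01 ± 0.21 and 0.10 ± 0.27. Il1b stood at 26.6, 943 and 8.76 CPM in Hoxb8 libraries, against 11.1, 408, 5.77 and 8.59 CPM in non-Hoxb8 libraries. Libraries 14 and 13 were far above the rest in both groups. Il1b was called with the pairs (log2 fold change 1.08, edgeR adjusted p = 0.00201), not without them (1.58 ± 2.28). P2rx7 stood at 480.1 and 361 CPM in those libraries, inside the range of the other 5 for library 14 and below it for library 13.

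**Figure D5:**
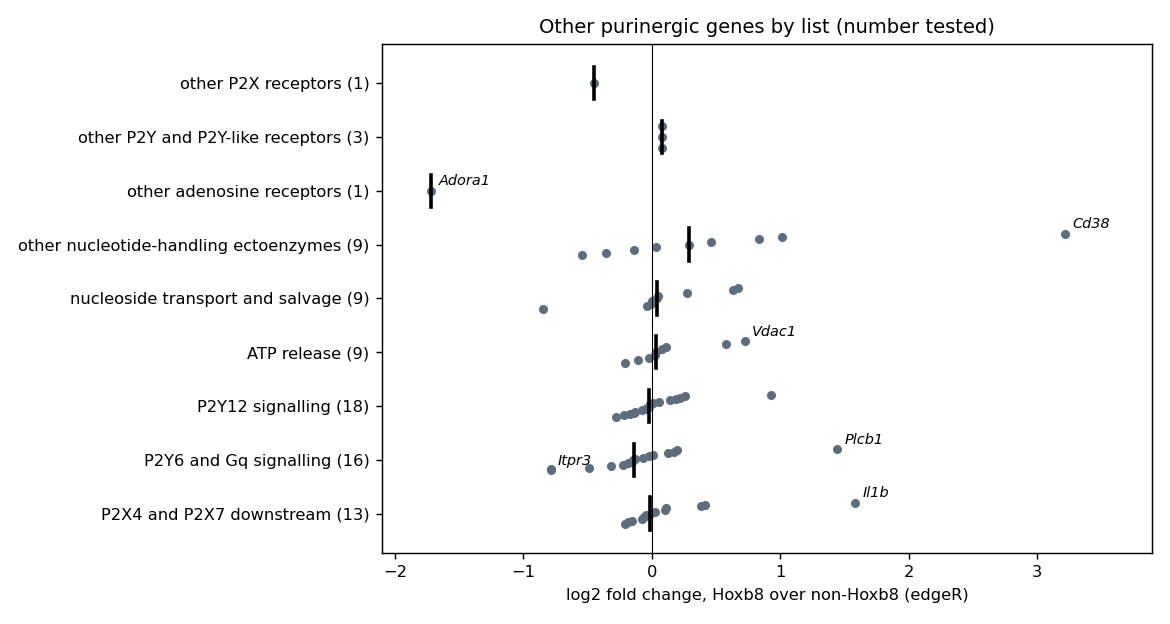
Log2 fold change of Hoxb8 over non-Hoxb8 for the 79 tested genes of the 9 purinergic lists, 1 point per gene, with a black bar at each list's median and the number tested in brackets. Most points lie near 0, with Cd38 at 3.22 and Adora1 at -1.72 farthest from it.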

How the data were processed

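The deposited table holds raw counts per gene symbol for 7 libraries. Per the labels' protocols, the authors mapped 50 bp single-end reads without strand with STAR 2.4.1c on GRCm38 with GENCODE M5. Among the tools in the submitters' processing notes are featureCounts (Subread) and DESeq2; the counting settings are not given in the sources used here. Of 14616 rows, 22 named by spreadsheet dates (at most 0.151% of counts in a library) were left out.

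The test on counts was that of edgeR 4.0.16, run in R 4.3.3 (TMM, filterByExpr, robust glmQLFit and glmQLFTest) over 11874 genes, with Benjamini-Hochberg adjustment at 0.05. The SE is the log2 fold change over the square root of F, and 95% intervals use the t quantile of the fit. Single values were compared by exact permutation over 35 splits (scipy 1.17.1). DESeq2 1.42.0 and limma-voom (limma 3.58.1) were alternatives, with other scalings and filters, and libraries left out. All library pairs differed beyond sampling noise, the lowest chi-square over its degrees of freedom being 17.1. Hoxb8 itself was not analysed here.

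Adjacent library numbers (5 and 6, 13 and 14, 21 and 22) were taken as possible pairs. Deviations from group means correlated at 0.18, 0.28 and 0.19 in these pairs. Correlations for other combinations of libraries are not given, so these values alone cannot settle the pairing. The labels do not state this pairing. Lengths and positions are from GENCODE M21, the same assembly as the files, in which 13986 of 14594 symbols matched 1 gene. Promoters are from RefSeq (GRCm38.p6).

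Members and lists were chosen with earlier results of these data known. The text names all members, the first 3 tested genes of each list, those called with or without pairs, those without overlap, and the 2 genes nearest in profile to each member.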

Additional observations from a re-analysis of the deposited data

How the results depend on the processing

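Under 18 alternative settings, the 7 purinergic genes gave 0 calls in either direction and 126 log2 fold changes between -0.25 and 0.33, of which 9 changed sign. All 126 intervals stayed between -1 and 1, from -0.93 to 0.85 at their widest, and 0 had an unadjusted p below 0.05. The adjusted p ranged from 0.98 to 1.00. Each changed value had an interval across 0. Entpd1 had the largest, 0.15 without library 5 and 0.089 without library 22. It turned to 0.028 with the replicate block of adjacent library numbers in edgeR and to 0.032 in DESeq2, P2rx7 to -0.0029 without libraries 13 and 14, and Adora3 to -0.00022 with no scaling beyond the library total. Leaving out each library in turn gave -0.18 to 0.15 for Entpd1, -0.19 to 0.0065 for P2rx4, -0.051 to 0.041 for Adora3, 0.01 to 0.21 for P2rx7, 0.03 to 0.26 for P2ry12, 0.0052 to 0.20 for P2ry13 and -0.25 to -0.05 for P2ry6. Counts over all genes moved more. Genes called higher numbered 4, with 21 in DESeq2, 0 in limma-voom, 43 and 48 with pairs in edgeR and DESeq2, 2 without libraries 13 and 14, 0 without libraries 21, 22 and 25, and 0 to 6 with 1 library left out (0 without library 5, 2 without library 14). Genes called lower numbered 0, with 5 in DESeq2, 1 in DESeq2 with pairs, and 0 to 0 with 1 library left out. The cause of these shifts was not tested. The replicate block changed no call on the 7 genes.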
